A study of Homo sapiens with 4 samples.

Results

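The axon guidance ligands and receptors examined here are 55 named genes of the ephrin, semaphorin, netrin and Slit systems, found by symbol in a table of 35606 genes, with a single row for each. They were measured by poly(A)-selected, directional RNA-seq in K562, a line derived from chronic myeloid leukaemia that keeps an erythroid programme. JAZF1-SUZ12 is the fusion protein of low-grade endometrial stromal sarcoma, in which a JAZF1 segment precedes most of SUZ12, a core subunit of the PRC2 complex. Replicates 1 and 2 of the cells expressing it (the fusion libraries) were compared with replicates 1 and 2 of mock cells (the mock libraries). Both groups share the same cell line, and the labels do not say how the fusion was introduced, whether the cells were a clone, or whether same-group libraries came from separate cultures, so that p-values measure only the spread between these libraries. The source label of every sample reads uterus, which differs from the stated cell line. The libraries held from 17260936 to 24423028 counts. As a check of the labels, JAZF1 had 12 and 27 counts in mock and 574 and 731 in fusion libraries, a log2 fold change of 5.05, and that of SUZ12 was 1.005, with reads of the fusion and of the endogenous genes not separated.

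Guidance cues steer growing axons by attraction or repulsion, and the same proteins also act in blood vessels, immune cells and tumours. Ephrins are membrane-bound ligands of the Eph receptor tyrosine kinases, semaphorins act on plexins, with neuropilins as co-receptors for the secreted class, netrins act on DCC and UNC5 receptors, and Slits act on Robo receptors. The receptors signal to the actin cytoskeleton. PRC2, which places the repressive H3K27me3 mark, is known to hold many developmental genes silent at CpG-rich promoters.

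Of the 55 genes, 39 passed the filter on low counts and were tested, and 16 did not. By edgeR's quasi-likelihood test, 15 rose and 2 fell in JAZF1-SUZ12 cells at a Benjamini-Hochberg adjusted p under 0.05, and 22 did not pass. The background over all 14750 genes tested was 13.3% called higher and 11.4% called lower, 24.7% in all, whereas 38.5% of the tested guidance genes were higher and 5.13% lower. At least a 2-fold rise was called for 7 guidance genes, EFNA2, SEMA3F, PLXNA2, NRP2, UNC5A, SLIT1 and ROBO3, which is 17.9% of those tested against 5.55% of all genes. No guidance gene was called at least 2-fold lower, against a background of 0.122%. The median log2 fold change of the 39 was 0.46, beside 0.0032 over all genes tested. In bulk RNA, a change in the share of cells that carry a transcript and a change in its amount per cell cannot be told apart.

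Part of these counts rests on the filter for low counts, which EPHA1, EPHA4, NRP2, UNC5A, SLIT1 and ROBO1 passed only through the fusion libraries. Of these 6, 3 were called higher, NRP2, UNC5A and SLIT1, all among the genes called at least 2-fold higher, so that share rests partly on the filter. The filter asks for about 0.479 CPM, the counts per 1000000 counts of a library, in 2 libraries. Of the 22 guidance genes that averaged 50 counts or more, 12 were called higher and 2 lower when only genes of that abundance were tested, beside 14.6% higher and 11.8% lower among all 11826 such genes. NRP2, UNC5A, SLIT1 and ROBO3 averaged fewer counts, so EFNA2, SEMA3F and PLXNA2 alone remained at least 2-fold higher there. The share of all such genes at least 2-fold higher was not computed. The CPM ranges of the 2 groups did not overlap for 31 of the 39 genes, or 79.5%, against 61.0% of all genes tested.

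**Figure D1:**
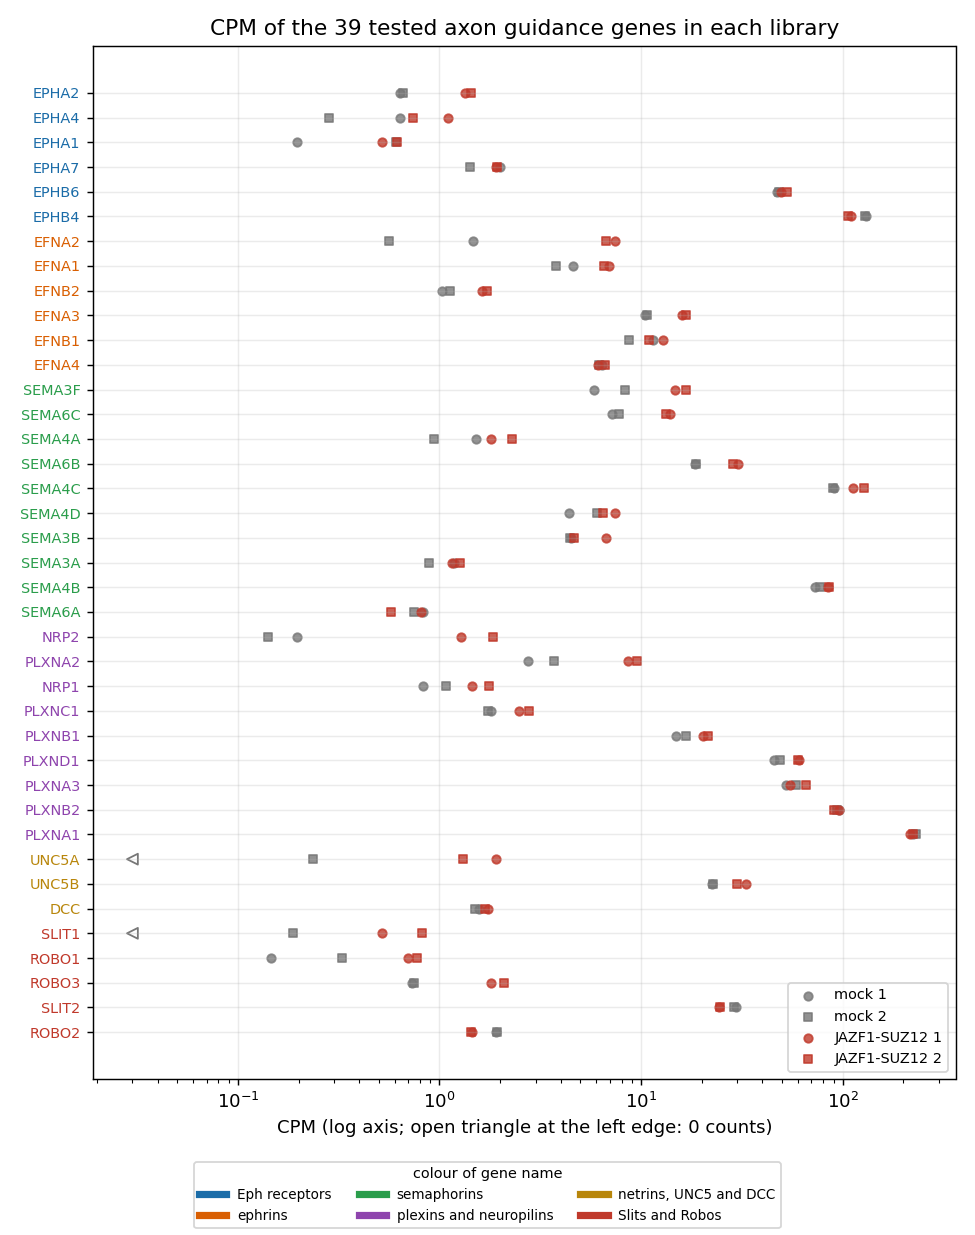
CPM (log axis) of the 39 tested genes in each library, ordered by family and, within a family, by fold change; grey points are mock and red points JAZF1-SUZ12 libraries, circles replicate 1 and squares replicate 2. Red points lie right of grey ones for most genes of low and middle abundance, such as EFNA2 and PLXNA2, whereas the points of PLXNA1 and PLXNB2 lie close together and those of EPHB4 and SLIT2 are reversed.

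The sequences before the starts of 4 of the strongest risers and of EPHB4, the gene with the smallest p among those that fell, are shown to compare genes that moved in opposite directions. They are the bases before the RefSeq transcript start (GRCh38.p14), cut where GENCODE 29 annotates an exon of the gene, and capitals mark each CpG dinucleotide.
EFNA2 (chr19:1285623-1285872, plus strand): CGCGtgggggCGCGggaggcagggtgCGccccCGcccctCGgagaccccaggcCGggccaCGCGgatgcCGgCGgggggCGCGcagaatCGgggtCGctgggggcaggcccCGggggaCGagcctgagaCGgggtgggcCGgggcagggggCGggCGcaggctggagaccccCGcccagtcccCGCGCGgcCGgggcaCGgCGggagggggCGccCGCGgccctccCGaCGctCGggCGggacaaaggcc
UNC5A (chr5:176810309-176810476, plus strand): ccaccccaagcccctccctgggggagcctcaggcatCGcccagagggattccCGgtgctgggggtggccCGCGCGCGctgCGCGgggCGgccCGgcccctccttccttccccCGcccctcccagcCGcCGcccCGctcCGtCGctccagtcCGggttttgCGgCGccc
NRP2 (chr2:205682251-205682499, plus strand): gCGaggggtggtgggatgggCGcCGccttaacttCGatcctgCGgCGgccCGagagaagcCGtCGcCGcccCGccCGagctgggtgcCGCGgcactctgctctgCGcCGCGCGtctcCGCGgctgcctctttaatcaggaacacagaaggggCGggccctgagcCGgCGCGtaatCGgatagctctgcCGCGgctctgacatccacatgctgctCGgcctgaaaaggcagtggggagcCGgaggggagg
PLXNA2 (chr1:208244385-208244634, minus strand): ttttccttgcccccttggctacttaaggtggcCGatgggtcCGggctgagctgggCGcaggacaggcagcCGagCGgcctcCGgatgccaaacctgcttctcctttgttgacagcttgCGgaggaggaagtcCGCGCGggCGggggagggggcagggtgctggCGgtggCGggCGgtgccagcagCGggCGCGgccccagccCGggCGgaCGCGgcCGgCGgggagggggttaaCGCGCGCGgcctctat
EPHB4 (chr7:100827524-100827773, minus strand): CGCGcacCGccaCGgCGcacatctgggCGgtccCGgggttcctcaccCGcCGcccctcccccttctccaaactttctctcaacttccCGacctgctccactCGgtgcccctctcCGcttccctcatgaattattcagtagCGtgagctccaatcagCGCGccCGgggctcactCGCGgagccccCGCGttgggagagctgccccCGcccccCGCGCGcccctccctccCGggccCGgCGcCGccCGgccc
The EFNA2 run held 36 CpG in 250 bases, UNC5A 19 in 168, NRP2 29 in 249, PLXNA2 27 in 250 and EPHB4 29 in 250. All of these were rich in CpG, the gene that fell as well as those that rose.

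Across the members, 46 of the 55 genes had a RefSeq window, 70 windows in all, each running from 250 bases before to 50 after a start. A GC content of at least 50% together with a CpG observed-over-expected ratio of at least 0.6 was found in 72.9% of the member windows, against 46.9% of the 35116 windows of all genes. It was found in 16 of 18 windows from 13 genes called higher and 2 of 2 from 2 genes called lower. It was found in 18 of 34 windows from 19 genes tested but not called. For 12 genes with too few counts to test, it was found in 15 of 16 windows. A gene with several starts enters these counts several times, among them SEMA3B and SEMA4A, which were not called. The GC box GGGCGG, searched on both strands, was in 78.6% of member windows and in 44.95% of all windows, and the motif itself contains a CpG. TATAAA was in 2.86% and 11.5%, and AGATAA, a form of the GATA motif, in 5.71% and 10.3%. These are descriptions of letters, with no test, and windows of the same gene can overlap. The background covers all genes with a window, tested or not. The shares among all tested genes, or among all genes with the same call, were not computed.

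**Figure D2:**
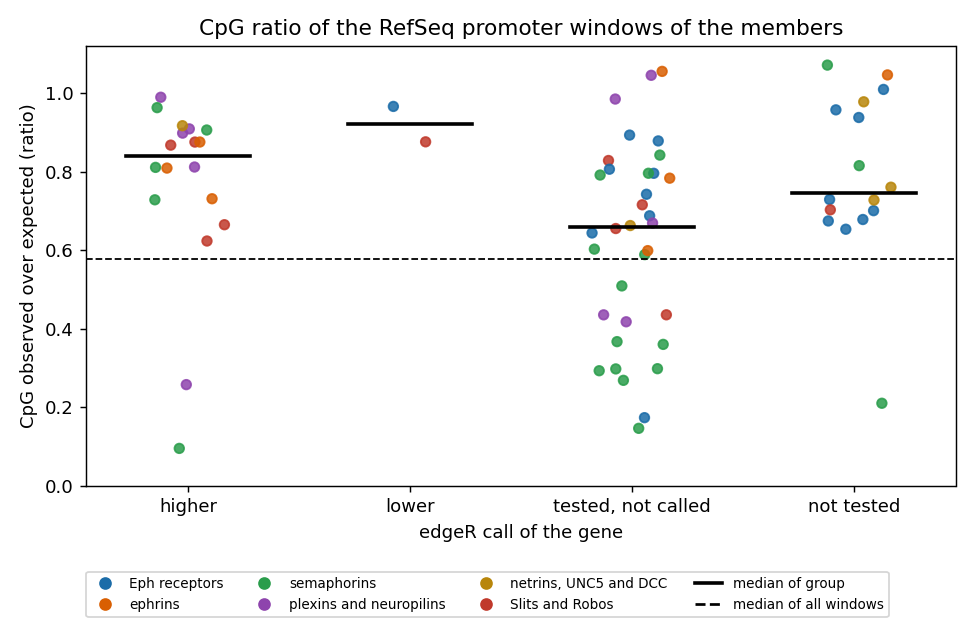
CpG observed-over-expected ratio of the 70 RefSeq windows (points, coloured by family; horizontal position within a column is arbitrary) by the call of the gene, with the median of each column (thick line) and of all 35116 windows (dashed line, 0.579). The medians are 0.84 for genes called higher, 0.922 for the 2 windows of genes called lower, 0.659 for genes tested and not called and 0.745 for genes not tested.

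Among the ephrins, the ligands of Eph receptors, 3 of 6 tested genes rose. No ephrin, semaphorin, plexin, neuropilin or netrin-system gene was lower at an unadjusted p under 0.05 by edgeR, DESeq2 or limma-voom (0 by each). The share of all genes lower at that unadjusted threshold was not computed. EFNA2, a GPI-anchored ligand of EphA receptors (ENSG00000099617; GRCh38 chromosome 19, 1286154 to 1300237, plus strand), was at 1.47 and 0.564 CPM in mock replicates 1 and 2 and at 7.42 and 6.71 CPM in fusion replicates 1 and 2. The groups were far apart, although the mock libraries differed from each other by more than the fusion libraries did. EFNA2 rose by 2.78 ± 0.32 on the log2 scale (SE; edgeR, adjusted p = 1.13e-05). Leaving out a mock library gave 3.60 (without replicate 1) or 2.23 (without replicate 2), and the value was 2.77 in the authors' deposited table (adjusted p = 2.83e-06).

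EFNA3 and EFNA1 are also ephrin-A ligands, and they lie with EFNA4 in a row on chromosome 1 (EFNA4 from 155063731 to 155069553, EFNA3 from 155078872 to 155087538, EFNA1 from 155127460 to 155134857, all on the plus strand). EFNA3 was at 10.5 and 10.7 CPM without and 16.0 and 16.6 CPM with the fusion, a log2 fold change of 0.61 (SE 0.12; edgeR, adjusted p = 0.00165). EFNA1 was at 4.60 and 3.80 CPM without and 6.95 and 6.55 CPM with the fusion, a log2 fold change of 0.66 (SE 0.20; edgeR, adjusted p = 0.0225). The call of EFNA1 was lost with DESeq2 (adjusted p = 0.0984), without fusion replicate 1 (edgeR, adjusted p = 0.0652) and without mock replicate 2 (edgeR, adjusted p = 0.106). EFNA4, the first of the row, was at 6.41 and 6.20 CPM without and 6.08 and 6.59 CPM with the fusion, with overlapping groups and a log2 fold change of -0.011 (SE 0.18; edgeR, adjusted p = 0.974). The annotated transcript AL691442.1 shares exons with both EFNA3 and EFNA4, and estimated counts can be divided among them. It had 0 and 8 counts in mock and 34 and 6 in fusion libraries, and adding it to EFNA3 gave 214 and 235 against 310 and 412 counts. Adding it to EFNA4 gave 131 and 140 counts in mock and 139 and 167 in fusion libraries. The values of EFNA4 thus depend on how shared reads are assigned, and these sums were not tested. The transmembrane ephrins EFNB1 and EFNB2, ligands of EphB receptors, had log2 fold changes of 0.21 and 0.61 that did not pass (edgeR, adjusted p = 0.371 and 0.296).

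Among the Eph receptors, 6 of 13 genes were tested, EPHB4 fell and 0 rose by edgeR, DESeq2 or limma-voom, with 1, EPHA2, higher at an unadjusted p under 0.05 by edgeR and limma-voom and 0 by DESeq2. EPHB4, a receptor of ephrin-B2 known for its role in venous endothelium (ENSG00000196411; chromosome 7, 100802565 to 100827521, minus strand), was at 130.4 and 129 CPM without and 109 and 106 CPM with the fusion. The replicates lay close together in both groups and the groups did not overlap. Its log2 fold change was -0.29 ± 0.053 (SE; edgeR, adjusted p = 0.000775), and it ranged from -0.33 to -0.26 with 1 library left out. In the authors' deposited table it was -0.26 with an adjusted p of 0.0509. An exon of SLC12A9 on the opposite strand overlaps EPHB4; SLC12A9 itself was not called (log2 fold change -0.18; edgeR, adjusted p = 0.139). Whether strand entered the counting is not given in the sources used here.

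EPHB4 also had the highest level per length of the receptors, at 25.8 and 25.6 CPM per kb of its longest GENCODE transcript in mock, followed by EPHB6, a kinase-dead receptor, at a mock mean of 10.8 CPM per kb. EPHB6 was at 47.0 and 48.2 CPM without and 49.6 and 53.0 CPM with the fusion and was not called (edgeR, adjusted p = 0.350). The other tested receptors, EPHA1, EPHA2, EPHA4 and EPHA7, were at 0.259 CPM per kb or less in mock. EPHA2 was at 0.636 and 0.657 CPM without and 1.33 and 1.43 CPM with the fusion; its log2 fold change of 1.07 had a standard error of 0.47 and did not pass (edgeR, adjusted p = 0.109). Summed over the 13 receptors, the level was 181 ± 0.56 CPM in mock and 165 ± 0.0809 CPM in fusion libraries (SD, n = 2 each), and most of it was EPHB4. Summed over the 8 ephrins it was 33.5 ± 3.41 and 50.4 ± 1.52 CPM (SD, n = 2 each).

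Among the semaphorins, 10 of 12 genes were tested and 4 rose. SEMA3F, a secreted repellent that binds NRP2 (ENSG00000001617; chromosome 3, 50155045 to 50189075, plus strand), was at 5.87 and 8.31 CPM without and 14.8 and 16.7 CPM with the fusion. Every fusion value lay above every mock value. SEMA3F rose by 1.13 ± 0.16 on the log2 scale (SE; edgeR, adjusted p = 8.94e-05), and by 1.41 in the authors' deposited table (adjusted p = 0.000107). An antisense gene, SEMA3F-AS1, overlaps it and was not analysed here. SEMA3B, a secreted semaphorin that lies downstream on the same chromosome (50267558 to 50277546), was at 4.50 and 4.46 CPM without and 6.66 and 4.63 CPM with the fusion and was not called (edgeR, adjusted p = 0.369).

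Of the transmembrane class 6 genes, SEMA6B and SEMA6C rose. SEMA6B, a ligand of class A plexins (ENSG00000167680; chromosome 19, 4542593 to 4559808, minus strand), was at 18.5 and 18.6 CPM without and 30.4 and 28.6 CPM with the fusion. Its log2 fold change of 0.64 (SE 0.089) had the smallest p of the family (edgeR, adjusted p = 7.97e-05). SEMA6C was at 7.14 and 7.79 CPM without and 13.9 and 13.3 CPM with the fusion, a log2 fold change of 0.84 (SE 0.14; edgeR, adjusted p = 0.000429). SEMA6A had between 14 and 17 counts in every library and was not called (edgeR, adjusted p = 0.793). The log2 fold change of SEMA6A was -0.23 (SE 0.53), so a small difference could not be detected at this depth.

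In class 4, SEMA4C, a ligand of PLXNB2, was the most abundant semaphorin per length, at 23.98 and 23.6 CPM per kb in mock and 29.6 and 33.7 CPM per kb in fusion libraries. Its log2 fold change was 0.40 (SE 0.06; edgeR, adjusted p = 0.000192), and in the authors' deposited table it was 0.28 with an adjusted p of 0.060. SEMA4B was second in level per length; it was at 72.9 and 77.2 CPM without and 84.4 and 85.5 CPM with the fusion. It did not pass (log2 fold change 0.16; edgeR, adjusted p = 0.0603), but did with total counts as the scaling (edgeR, adjusted p = 0.0326) and with the filter at a mean of 50 counts (edgeR, adjusted p = 0.0248). SEMA4A and SEMA4D, which is also known as an immune semaphorin acting on PLXNB1, had log2 fold changes of 0.72 and 0.38 that did not pass (edgeR, adjusted p = 0.190 and 0.188). SEMA3A, the classic repellent acting through NRP1, had between 19 and 31 counts per library and was not called (edgeR, adjusted p = 0.770). The 12 semaphorins summed to 211 ± 4.61 CPM in mock and 280.1 ± 9.53 CPM in fusion libraries (SD, n = 2 each), values given with no test.

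All 9 plexins and neuropilins were tested, of which 4 rose. NRP2, the co-receptor of SEMA3F (ENSG00000118257; chromosome 2, 205681990 to 205798133, plus strand), had 4 and 3 counts without and 22 and 45 with the fusion. It was thus close to the limit of detection in mock. NRP2 rose by 3.16 ± 0.60 on the log2 scale (SE; edgeR, adjusted p = 0.00112), from 2.87 to 3.40 with 1 library left out, and 3.14 in the authors' deposited table (adjusted p = 0.0338). The ratio of summed counts was 9.59, with an exact 95% interval from 4.41 to 24.8 that covers counting error only. The other neuropilin, NRP1, was at 0.832 and 1.08 CPM without and 1.45 and 1.76 CPM with the fusion and was not called (log2 fold change 0.73, SE 0.42; edgeR, adjusted p = 0.233).

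PLXNA2, a signalling receptor for semaphorins of classes 3 and 6 (ENSG00000076356; chromosome 1, 208022242 to 208244320, minus strand), was at 2.74 and 3.71 CPM without and 8.57 and 9.499 CPM with the fusion. The groups were separated by more than the spread within either. PLXNA2 rose by 1.46 ± 0.20 on the log2 scale (SE; edgeR, adjusted p = 6.57e-05), and by 2.08 in the authors' deposited table (adjusted p = 2.46e-06). SEMA3F, its co-receptor NRP2 and PLXNA2 were thus each at least 2-fold higher with all libraries. NRP2 passed the filter on low counts only through the fusion libraries. PLXNA2 was at a mean of 0.79 CPM per kb in fusion libraries. The other class A plexins among the members, PLXNA1 and PLXNA3, were at 24.2 and 5.53 CPM per kb there and were not called. With 1 library left out, the log2 fold change of SEMA3F ranged from 0.89 (without mock replicate 1, under 2-fold) to 1.39, and that of PLXNA2 from 1.26 to 1.69.

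Of the abundant plexins, PLXND1 rose and PLXNA1, PLXNA3 and PLXNB2 did not pass. PLXNA1 had the highest level per length of the family, 24.7 and 25.6 CPM per kb in mock and 23.8 and 24.6 CPM per kb in fusion libraries, and was not called (edgeR, adjusted p = 0.265). PLXNB2 (log2 fold change -0.049) and PLXNA3 (0.11) were not called either (edgeR, adjusted p = 0.585 and 0.355), but PLXNA3 was called higher without fusion replicate 1 (log2 fold change 0.21; edgeR, adjusted p = 0.0373) and turned to -0.02 without fusion replicate 2. PLXND1, a receptor for SEMA3E in vessels, was at 45.5 and 48.7 CPM without and 60.4 and 60.0 CPM with the fusion, a log2 fold change of 0.33 (SE 0.065; edgeR, adjusted p = 0.00153). PLXNB1, the receptor of SEMA4D, was at 14.9 and 16.6 CPM without and 20.3 and 21.4 CPM with the fusion, a log2 fold change of 0.38 (SE 0.11; edgeR, adjusted p = 0.0137). The call of PLXNB1 was lost with DESeq2 (adjusted p = 0.0799), without fusion replicate 2 (edgeR, adjusted p = 0.0535) and without mock replicate 1 (edgeR, adjusted p = 0.108). PLXNC1 had a log2 fold change of 0.55 and was not called (edgeR, adjusted p = 0.218).

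**Figure D3:**
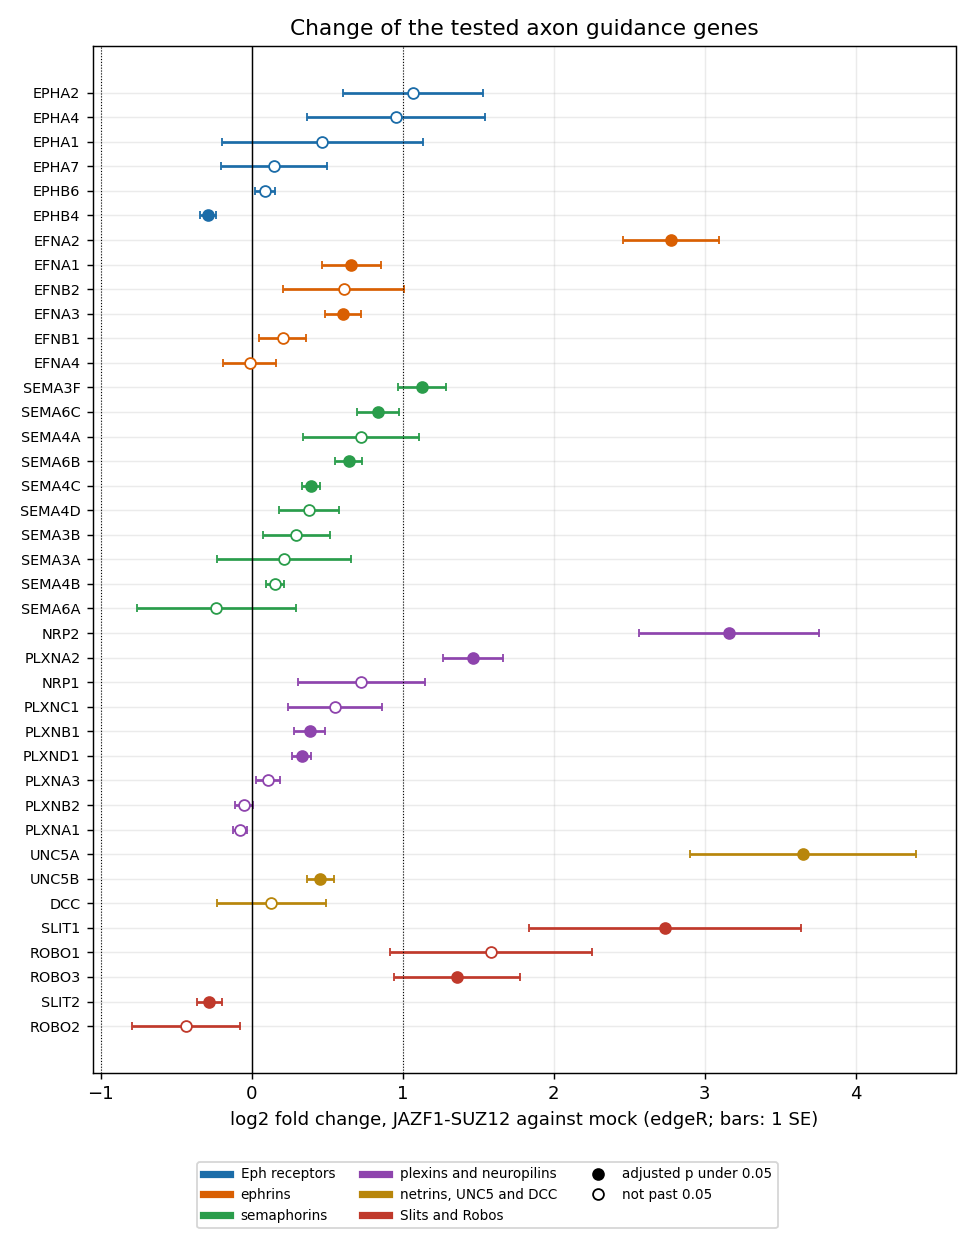
Log2 fold change, JAZF1-SUZ12 over mock, for the 39 tested genes by family (edgeR; bars are 1 standard error; filled points passed an adjusted p of 0.05, open points did not; dotted lines mark 2-fold). UNC5A, NRP2, EFNA2 and SLIT1 lie furthest right, and the 2 filled points left of 0 are EPHB4 and SLIT2.

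In the netrin system, UNC5A and UNC5B rose among 3 tested genes of 7. UNC5A, a receptor for netrin repulsion that is also known as a dependence receptor (ENSG00000113763; chromosome 5, 176810477 to 176880898, plus strand), had 0 and 5 counts without and 33 and 32 with the fusion. UNC5A rose by 3.65 ± 0.75 on the log2 scale (SE; edgeR, adjusted p = 0.00209) and by 3.73 in the authors' deposited table (adjusted p = 0.0200). Its size rested on the mock library used: with mock replicate 1 left out it was 2.70, and against mock replicate 1 alone, which has 0 counts, UNC5A was at least 11.0-fold higher against a floor of 3 counts. HK3 overlaps it on the opposite strand and had 0 counts in every library.

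UNC5B, a related receptor known in vessels (ENSG00000107731; chromosome 10, 71212570 to 71302864, plus strand), was the most abundant gene of the netrin system per length. It was at 22.4 and 22.8 CPM without and 33.3 and 29.9 CPM with the fusion, a log2 fold change of 0.46 (SE 0.088; edgeR, adjusted p = 0.00134). DCC, the attractive netrin receptor, was at 1.57 and 1.503 CPM without and 1.74 and 1.68 CPM with the fusion and was not called (edgeR, adjusted p = 0.833). The ligands among the members were near 0, with at most 6 counts of NTN1 and 0 counts of NTN4 in every library. So were UNC5C, with 1 and 2 counts in mock and 0 in fusion libraries, and UNC5D, with 0 throughout. Receptors of netrins were therefore measured with almost no transcript of NTN1 or NTN4. Outside the members, the netrin NTN3 had 8 and 16 counts in mock and 15 and 17 in fusion libraries and was not called (edgeR, adjusted p = 0.649). NTN5 had 3 counts in mock replicate 1 and 0 elsewhere.

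In the Slit and Robo system 5 of 6 genes were tested, SLIT1 and ROBO3 rose and SLIT2 fell, but none of these calls held under all alternatives. SLIT2, the main ligand (ENSG00000145147; chromosome 4, 20253260 to 20620561, plus strand), was at 29.7 and 28.9 CPM without and 24.4 and 24.5 CPM with the fusion. Its log2 fold change was -0.28 ± 0.082 (SE; edgeR, adjusted p = 0.0193). It was not called with DESeq2 (adjusted p = 0.125), without fusion replicate 2 (edgeR, adjusted p = 0.0885) or without mock replicate 1 (edgeR, adjusted p = 0.0747). At a mock mean of 4.59 CPM per kb, SLIT2 was the most abundant gene of the system, and the Robo receptors were at most 0.2 CPM per kb in mock.

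ROBO3, a receptor known for its part in midline crossing (ENSG00000154134; chromosome 11, 124865386 to 124881470, plus strand), had 15 and 16 counts in mock and 31 and 51 in fusion libraries. Its log2 fold change was 1.36 (SE 0.42; edgeR, adjusted p = 0.0253). The call was lost with DESeq2 (adjusted p = 0.0894) and without any 1 library, with edgeR adjusted p-values of 0.0607 and 0.199 without fusion replicates 1 and 2 and of 0.0875 and 0.0723 without mock replicates 1 and 2. SLIT1, a Slit known mainly from brain (ENSG00000187122; chromosome 10, 96998038 to 97185920, minus strand), had 0 and 4 counts in mock and 9 and 20 in fusion libraries (log2 fold change 2.74, SE 0.90; edgeR, adjusted p = 0.0358), and DESeq2 did not call it (adjusted p = 0.124). The rise of SLIT1 was 0.71 on the log2 scale in the authors' deposited table (adjusted p = 0.908), and 1.79 without mock replicate 1 (edgeR, adjusted p = 0.265). Without mock replicate 2, the remaining mock library has 0 counts and SLIT1 was at least 4.57-fold higher against a floor of 3 counts. The read-through gene ARHGAP19-SLIT1 shares its exons and had 11 counts in mock replicate 2 and 0 elsewhere. Adding both gives 0 and 15 against 9 and 20 counts, so the value of SLIT1 is uncertain. ROBO1 had 3 and 7 counts in mock and 12 and 19 in fusion libraries, and ROBO2 had 39 and 41 against 25 and 35; their log2 fold changes of 1.58 and -0.43 did not pass (edgeR, adjusted p = 0.0977 and 0.419).

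**Figure D4:**
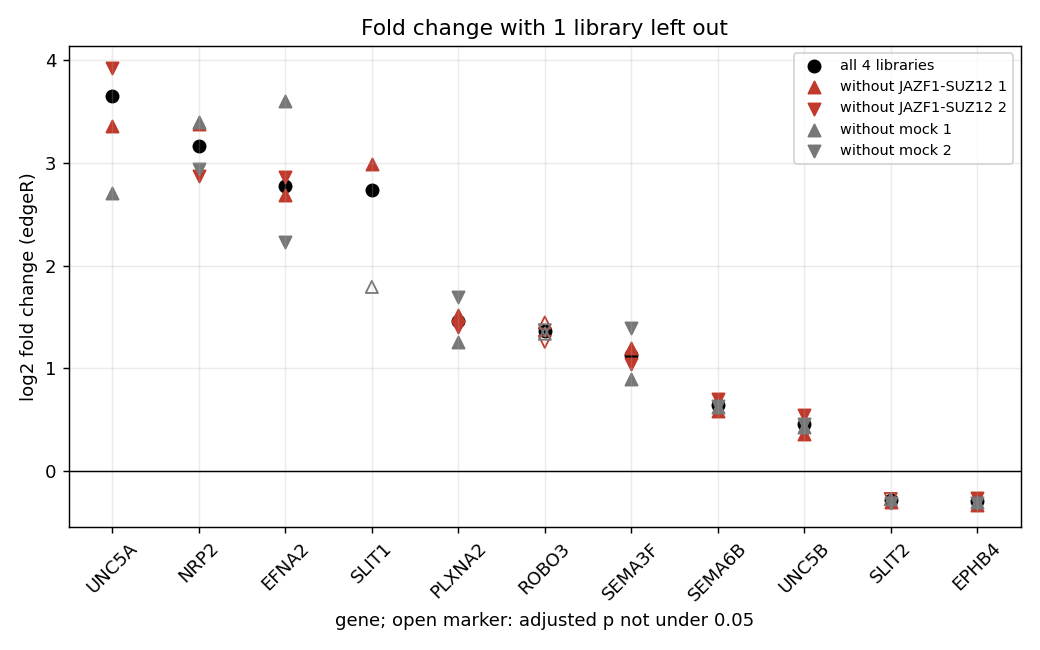
Log2 fold change (edgeR) of the 11 guidance genes given in full, with all 4 libraries (black) and with 1 library left out (coloured); open markers did not pass an adjusted p of 0.05, and UNC5A and SLIT1 without mock replicate 2 are not drawn because the remaining mock library has 0 counts. The direction holds for each drawn point, and EFNA2, UNC5A and SLIT1 move most with the choice of mock library.

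The 16 genes with too few counts to test had between 0 and 10 counts in a library and include 7 Eph receptors (EPHA3, EPHA5, EPHA8, EPHA10, EPHB1, EPHB2 and EPHB3), EFNA5, EFNB3, SEMA3C, SEMA5A, NTN1, NTN4, UNC5C, UNC5D and SLIT3. Among them EPHB2, a receptor of B ephrins, had 2 and 1 counts in mock and 8 and 10 in fusion libraries. Its ratio of summed counts was 6.01, with an exact 95% interval from 1.75 to 31.8 for counting error only. EPHB2 and EPHA8 were picked from the 16 after their counts were seen. EPHA8 had 0 counts in both mock libraries and 5 and 3 in fusion libraries, at least 1.43-fold higher against a floor of 3 counts per library. Each other untested gene that had counts had a 95% interval of the ratio of summed counts that included 1. Among them EPHA3, EPHA5, EFNA5, SEMA3C and UNC5C had ratios under 1.

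The authors' deposited table, which called 8.50% of the genes with an adjusted p, called 6 of the 44 members that had one: EFNA2, SEMA3F, SEMA6B, PLXNA2, NRP2 and UNC5A. All 6 were also called here. The remaining 11 genes called here were not called in the authors' deposited table, although all 17 had the same direction there. Here 12 of the 17 were called in each alternative that gave an adjusted p, the exceptions being EFNA1, PLXNB1, SLIT1, SLIT2 and ROBO3.

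Further genes of the pathway were read from the same fit, using a list of 76 other ligands, receptors and effectors. Of these, 58 were tested, 23 rose and 3 fell, beside the 13.3% and 11.4% over all genes, and their median log2 fold change was 0.25. Among the 23 other ligands and receptors, 6 of 11 tested rose by edgeR: SEMA4F, SEMA7A, NTNG2, NEO1, LINGO1 and RTN4R. At an unadjusted p under 0.05, edgeR and limma-voom had 8 higher and DESeq2 6, and 0 were lower by any of the 3 tools. Shares of all genes at that unadjusted threshold were not computed. Among the effectors, 17 of 47 tested rose and 3 fell. ENAH, an actin filament elongation factor, rose from 3.63 ± 0.844 to 24.1 ± 1.15 CPM (SD, n = 2 each; log2 fold change 2.71; edgeR, adjusted p = 7.04e-09). DPYSL5, a collapsin response mediator protein of the semaphorin pathway, rose from 0.527 ± 0.0152 to 8.51 ± 0.914 CPM (SD, n = 2 each; log2 fold change 3.97; edgeR, adjusted p = 7.11e-08).

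ABLIM1, an actin-binding LIM protein, rose from 3.64 ± 0.0374 to 11.7 ± 0.402 CPM (SD, n = 2 each; log2 fold change 1.66; edgeR, adjusted p = 2.99e-06). PAK1, a kinase that acts on the cytoskeleton, rose from 11.3 ± 0.156 to 22.9 ± 0.411 CPM (SD, n = 2 each; log2 fold change 0.999; edgeR, adjusted p = 5.29e-06), while the related PAK2 fell from 188 ± 4.53 to 157 ± 4.32 CPM (SD, n = 2 each; log2 fold change -0.28; edgeR, adjusted p = 0.000488). The other effectors that fell were LIMK1, the kinase of cofilin (log2 fold change -0.27; edgeR, adjusted p = 0.0124), and FARP2, which acts downstream of plexins (log2 fold change -0.23; edgeR, adjusted p = 0.0389). LIMK1 was not called by DESeq2 (adjusted p = 0.0754), without fusion replicate 2 (edgeR, adjusted p = 0.0995) or without mock replicate 2 (edgeR, adjusted p = 0.0612). FARP2 was not called by DESeq2 (adjusted p = 0.191), with total counts as the scaling (edgeR, adjusted p = 0.0627), with a mean of 50 counts as the filter (edgeR, adjusted p = 0.0562), without fusion replicate 2 (edgeR, adjusted p = 0.315) or without mock replicate 1 (edgeR, adjusted p = 0.137).

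Erythroid markers were high in each library, 14 genes summing to between 12880 and 13170 CPM in mock and between 14880 and 15070 CPM in fusion libraries, and 5 of them rose. Of 12 neuronal markers, 8 had at most 3 counts in every library, among them MAP2, NEFL, STMN2 and DCX. The neuronal list summed to between 58.7 and 59.0 CPM in mock and between 86.6 and 92.3 CPM in fusion libraries, nearly all of it TUBB3 and SYP, of which SYP rose (log2 fold change 0.85; edgeR, adjusted p = 1.25e-07). Of 6 endothelial markers only PECAM1 and CLDN5 had enough counts to test, and KDR and TEK had at most 3 counts. By edgeR 0 were called. At an unadjusted p under 0.05 there were also 0 by edgeR and DESeq2 and 1, PECAM1, by limma-voom. The list summed to between 9.39 and 13.2 CPM in mock and between 13.9 and 15.0 CPM in fusion libraries. Among them VWF had 0 counts in both mock libraries and 7 and 10 in fusion libraries. CLDN5 moved the opposite way, 17 and 11 mock counts against 8 and 7 fusion counts. The edgeR estimate for CLDN5 was -0.89 on the log2 scale, with a standard error of 0.63. The stromal list of 9, for the uterus of the source label, had COL3A1 and LUM at most 3 counts; it summed to between 14.4 and 15.0 CPM in mock and between 32.2 and 33.3 CPM in fusion libraries. COL1A1 rose, PGR was higher at an unadjusted p under 0.05 by edgeR and limma-voom but was not called (edgeR, adjusted p = 0.109), and ESR1, too sparse to test, had 4 and 4 counts in mock and 14 and 11 in fusion libraries. Most of the rise in the stromal sum was COL1A1 (mock libraries 5.2 and 6.4 CPM, fusion libraries 21.4 and 21.3 CPM). PDGFRA and THY1, too sparse to test, moved down from 5 and 6 mock counts for either gene. Fusion counts were 3 and 0 for PDGFRA, 1 and 4 for THY1. For COL1A2 and DCN the groups overlapped. Of 6 epithelial markers, KRT19 rose and EPCAM fell, and the list summed to between 207 and 216 CPM in mock and between 222 and 225.7 CPM in fusion libraries. The part of these markers in the guidance gene results was not tested.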

How the data were processed

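Estimated counts per gene, not normalized, were deposited by the authors for 4 libraries; per the submitters' processing notes the tools were fastp 0.20.1, kallisto 0.46.2 and DESeq2 1.30.1 on hg38, and the annotation is not given in the sources used here. Depending on the library, 29.9% to 33.6% of these counts were not whole (tolerance 1e-06), and all were rounded before testing. A second table deposited by the authors holds their comparison: per the file headers it has a mean signal of depth-normalized counts, a log2 fold change with its error, a test score, and p-values with adjusted p-values.

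Genes were kept with filterByExpr by group, scaled with TMM and tested with edgeR 4.0.16 (quasi-likelihood F test, two-sided, group as the only term, Benjamini-Hochberg over 14750 genes, threshold 0.05) in R 4.3.3. The standard error is the absolute log2 fold change over sqrt(F). In CPM, the unit is the rounded count per 1000000 counts of the library, and levels per kb use the longest GENCODE 29 transcript (GRCh38). The script was tested on simulated data. Alternatives were DESeq2 1.42.0, limma-voom (limma 3.58.1), other scalings, other filters, a replicate block and leaving out each library, where the lone library is assumed to vary like the other group.

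The members, gene lists and rules were chosen with earlier results of these data known. Given in full are called members changed at least 2-fold, the called member with the smallest p in each direction per family, and up to 4 other pathway genes per direction; members beyond that rule are named with shorter values after these were seen. Promoters are RefSeq windows. Exon overlaps were read from GENCODE 29; 18 members overlap an exon on the opposite strand.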

Additional observations from a re-analysis of the deposited data

How the results depend on the processing

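Under 11 alternatives no fold change of the 11 guidance genes given in full changed direction, and 106 of 116 values kept their side of the threshold, the other 10 (of SLIT1, SLIT2 and ROBO3) losing the call. The 17 calls among the members became 12 with DESeq2 and lay between 14 and 18 in the other fits to all libraries; the median log2 fold change over the members tested lay between 0.38 and 0.48. DESeq2 called 2407 genes in place of 3643, 1 member lower in place of 2, 0 of the Slits and Robos in place of 3 (2 higher and 1 lower had an unadjusted p under 0.05 in DESeq2, and limma-voom called 2 higher and 1 lower) and 1 other guidance gene lower in place of 3; the cause was not tested. With a mean of at least 50 counts, calls numbered 1 among netrins, UNC5 and DCC in place of 2 and 1 among Slits and Robos, since fewer genes were tested. With 1 library left out, all calls ranged from 2568 to 3782, those of members from 13 to 16, members lower from 1 to 2, Slits and Robos from 0 (without JAZF1-SUZ12 replicate 2 or mock replicate 1) to 2, and other guidance genes lower from 1 (without JAZF1-SUZ12 replicate 2) to 5 (without JAZF1-SUZ12 replicate 1). With the replicate block 4061 genes and 18 members were called, and SEMA4B was added (edgeR, adjusted p = 0.0439). The deviations of same-numbered libraries from their group means had a correlation across genes of -0.00072. With 2 libraries per group, this value cannot show whether same-numbered libraries shared a culture or a day. Depth limits the 16 untested genes and those with few mock counts, such as UNC5A, NRP2 and SLIT1.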
